A study of Homo sapiens with 10 samples.

Results

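Poly(A) 3′-seq peaks were examined in 41 genes of 4 repair pathways: nucleotide excision repair (12 genes), mismatch repair (5), base excision and single-strand break repair (16), and DNA end joining (8). A peak was assigned to a gene when its summit lay in the GENCODE 44 body of the gene or up to 600 bp past the 3′ end, which gave 461 of the 178837 peaks in the deposited list. The genes were listed by name and pathway, with earlier results of these data known, and stand among 20007 protein-coding genes. The RNA came from IMR-32, a human neuroblastoma cell line with amplified MYCN, transduced with pLKO.1 lentiviral shRNAs and selected with puromycin for 2 days. CDK12 was targeted by sh22 and sh98 and CDK13 by sh701 and sh704, with 2 libraries for each shRNA, and 2 libraries carried an shRNA against GFP. All 10 libraries, the GFP controls included, had been through transduction and selection. The study asked how loss of CDK12 or CDK13, kinases that phosphorylate the tail of RNA polymerase II, changes where transcripts end in genes of the DNA damage response. The list pools the reads of all 10 libraries, so no value belongs to one group, no replicate error exists, and neither depletion of CDK12 or CDK13 nor any difference between groups could be checked. A site described here may have been used in knockdown cells, control cells or both.

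The terminal peaks of the IMR-32 markers matched the label. PHOX2A, HAND2, GATA3, ISL1, DBH, TH, CHGA and MYCN each had at least 1, with pileups of 16 to 114 reads. Among markers of other cells, PTPRC had none, ALB had 1 of 3 reads, and EPCAM and COL1A1 reached 13 and 14 reads. The highest values of the noradrenergic markers lay well above these, although ISL1 (16 reads) and DBH (17 reads) did not.

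Nucleotide excision repair removes bulky lesions: XPC with RAD23B, or the DDB1-DDB2 complex, recognises damage, ERCC6 and ERCC8 act at stalled RNA polymerase, the helicases ERCC2 and ERCC3 open the DNA, and ERCC1-ERCC4 and ERCC5 cut on either side. Mismatch repair corrects replication errors through MutS partners (MSH3, MSH6) and MutL partners (PMS1, PMS2, MLH3). Base excision repair starts with a glycosylase that removes a damaged base and ends with APEX1, POLB and the ligases LIG1 or LIG3, while end joining closes double-strand breaks through the Ku proteins XRCC5 and XRCC6. A transcript of any of these genes is cut and polyadenylated downstream of a signal, most often AATAAA or ATTAAA, and a signal inside an intron can yield a shortened RNA that lacks the last exons. A run of A encoded in the genome can also bind the oligo(dT) primer of the library, so the A content downstream is given for groups of sites and for many of the sites described.

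The reads of this library type start at the cleavage site, so signals were searched from the last base of each peak in the direction of transcription, called its 3′ edge. The first set of sequences shows the signals at ordinary gene ends. It holds the 6 strongest terminal sites that carried AATAAA or ATTAAA starting 10 to 40 bp upstream of the 3′ edge, belonged to the strongest terminal peak of a member and lay in no other gene. Capitals mark the signal, and each run covers at most 30 bases of GRCh38, 5′ to 3′ on the strand of the gene.
PMS1 terminal site, chr2:189877602-189877631, plus strand: acgtaAATAAActaatatagactattcatt
PARP1 terminal site, chr1:226360691-226360720, minus strand: actcgATTAAAaatgcagatgccttctcta
DDB1 terminal site, chr11:61299450-61299479, minus strand: taccaAATAAAgtagaatataagaagaaag
XRCC6 terminal site, chr22:41664010-41664039, plus strand: gcctgAATAAAgagccctaagtttgtacta
ERCC3 terminal site, chr2:127257293-127257322, minus strand: ttctgAATAAAcagaatggaccattgaacc
PARP2 terminal site, chr14:20357879-20357906, plus strand: tatgtAATAAAaactgtacaggtctacc
The signal started 26 bp before the 3′ edge in PARP1, 28 bp in DDB1, 23 bp in PARP2, 33 bp in ERCC3, and 35 bp in PMS1 and XRCC6. PARP1 carried ATTAAA and the other members shown carried AATAAA.

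The second set shows the strongest intronic sites with a signal 10 to 40 bp upstream and fewer than 7 A among the 10 bases downstream, in no other gene. Each run holds the 60 last bases of the peak and the 20 bases after it, with the signal in capitals.
XRCC5 intron 14, chr2:216148864-216148943, plus strand: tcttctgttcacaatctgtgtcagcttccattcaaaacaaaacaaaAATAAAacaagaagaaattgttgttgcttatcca
PMS1 intron 1, chr2:189785246-189785325, plus strand: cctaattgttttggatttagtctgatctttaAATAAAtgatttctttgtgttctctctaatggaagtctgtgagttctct
XRCC5 intron 2, chr2:216115091-216115170, plus strand: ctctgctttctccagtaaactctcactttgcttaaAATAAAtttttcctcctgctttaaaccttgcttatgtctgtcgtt
ERCC6 intron 1, chr10:49538025-49538104, minus strand: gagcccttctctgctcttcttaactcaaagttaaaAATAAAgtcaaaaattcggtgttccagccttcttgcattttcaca
ERCC6 intron 5, chr10:49518921-49519000, minus strand: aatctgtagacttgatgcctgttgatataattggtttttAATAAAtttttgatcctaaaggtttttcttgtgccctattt
PMS1 intron 10, chr2:189867587-189867666, plus strand: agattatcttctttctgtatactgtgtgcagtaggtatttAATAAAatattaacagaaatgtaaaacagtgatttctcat
The 10 bases after these sites held between 0 and 5 A, against 1 to 5 at the terminal sites above, and every one of the 6 carried AATAAA. The choice of sites with fewer than 7 A bounded the intronic range in advance. In XRCC5 intron 14 the signal lies within an A-rich stretch upstream of the 3′ edge, which the count downstream does not cover.

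For contrast, the strongest intronic site of PMS1 at which all 10 bases downstream were A is shown, a peak of 17 reads in intron 5. Here the capitals mark those 10 bases, and the site had no AATAAA or ATTAAA 10 to 40 bp before its 3′ edge.
PMS1 intron 5, chr2:189835858-189835937, plus strand: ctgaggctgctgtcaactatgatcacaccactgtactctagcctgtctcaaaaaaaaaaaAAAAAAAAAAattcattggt
The genomic stretch of A starts before the peak ends, unlike at the PMS1 sites in introns 1 and 10 above.

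A terminal peak, with its summit between 200 bp upstream and 600 bp downstream of the 3′ end of any annotated transcript, was present in 40 of the 41 members (97.6%). The same held for 68.7% of all protein-coding genes, a set that includes genes IMR-32 cells do not transcribe. The 461 member peaks comprised 107 terminal, 78 exonic and 276 intronic peaks. Terminal peaks were thus 23.2% of member peaks (95% Wilson interval 19.6 to 27.3), against 18.7% in other protein-coding genes. Intronic peaks made up 59.9% (55.3 to 64.2) in members and 71.0% in the others. These shares are not matched for gene length, and the longest gene was 276 kb in members and 2470 kb in other genes with a terminal peak. Intronic counts beside genes of similar length are given below. The intervals cover counting error only, since peaks of the same gene, PCR copies and overlapping transcripts are not independent.

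The strength of a peak is given as its pileup, recovered from the deposited fold and p-value. It is the number of counted reads of the merged libraries, on either strand, that cover the summit after extension to 100 bp. Reads at the same position and strand may have been counted once, so the pileup can fall short of the number of all reads, most at sharp sites. Over the 40 members the strongest terminal pileup had a median of 31.5 reads (range 9 to 59), and over 13704 other genes it had a median of 23 (range 3 to 114). The pileup rises with expression and with the spread of cleavage positions, and the 2 cannot be told apart in this list.

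In nucleotide excision repair every one of the 12 genes had a terminal peak, with strongest pileups of 14 to 42. The highest was that of ERCC1 (42 reads), the partner of the ERCC4 nuclease, at a position that POLR1G on the opposite strand shares. Without strand, a pileup at a position that another gene shares cannot be assigned to a single gene, here or below. Next came the damage-verification protein XPA (39), the helicase ERCC2 (38) and DDB1 (36), an adaptor of a ubiquitin ligase. DDB2, which finds ultraviolet lesions, reached 33 reads, RAD23B 32, the helicase ERCC3 31, and both XPC and ERCC4 30. The nuclease ERCC5 reached 24. The weakest members were the transcription-coupled repair genes ERCC6 (16 reads) and ERCC8 (14). For ERCC8, 79.7% of other genes with a terminal peak had one at least as strong.

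In mismatch repair PMS1 reached 43 reads, MSH6 38, PMS2 32 and MSH3 19. MLH3, a MutL partner, was the one member without a terminal peak. Its 4 peaks were weak: an exonic peak of 9 reads in the coding sequence, 34135 bp before the canonical end and with 9 A downstream, and intronic peaks of 6, 7 and 9 reads in introns 6, 9 and 11. Those 3 intronic sites had 1 to 3 A downstream on the strand of the gene but 10 A on the opposite strand at the other edge.

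In base excision and single-strand break repair all 16 genes had a terminal peak. TDG, a glycosylase that removes thymine from G-T mispairs, led with 54 reads, a level that 3.96% of other genes matched or exceeded. It was followed by the glycosylase NEIL3 (41 reads), the endonuclease APEX1 (40), the glycosylase OGG1 (39), and LIG3 and PARP1 (37 each). NEIL1, PARP2, POLB and MBD4 reached 33, 28, 26 and 24 reads. LIG1 and NTHL1 reached 22, NEIL2 21 and UNG, which removes uracil, 19. The scaffold protein XRCC1 (15) and the glycosylase MUTYH (10) stood lowest.

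In end joining the Ku80 gene XRCC5 had the strongest terminal peak of all 41 members, with 59 reads. Only 2.34% of other genes had one as strong. Its partner XRCC6 (Ku70) reached 36 reads, the nuclease DCLRE1C 35, NHEJ1 34, the kinase PRKDC 24 and the polymerase POLQ 22. Ligase IV and its cofactor were weak, with 15 reads at LIG4 and 9 at XRCC4, the longest member (276 kb). For XRCC4, 92.1% of other genes had a terminal peak at least as strong.

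**Figure D1:**
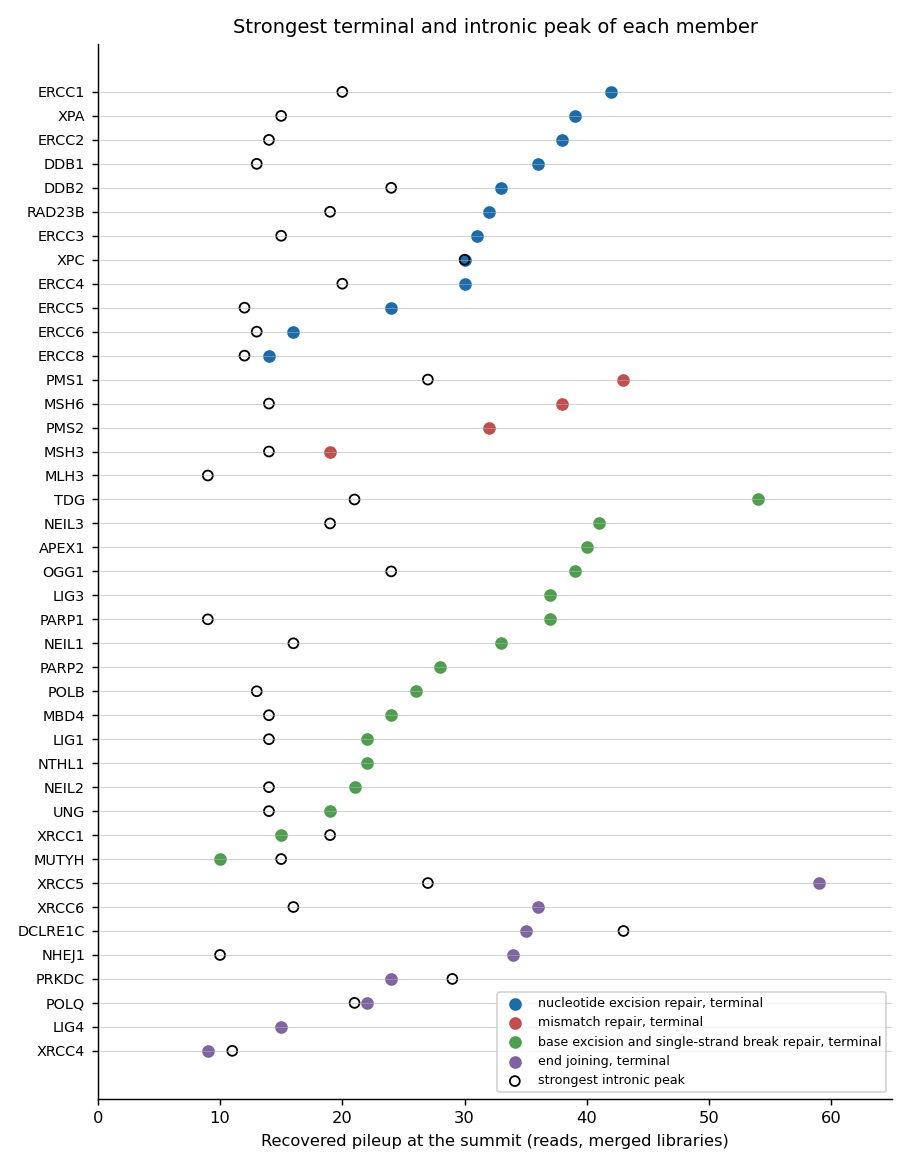
Recovered pileup (reads of the merged libraries, x axis) of the strongest terminal peak (filled, coloured by pathway) and the strongest intronic peak (open) of each member (y axis). XRCC5 has the highest terminal pileup at 59 reads, MLH3 has none, and in 5 members the strongest intronic peak exceeds the strongest terminal peak.

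The strongest intronic peak exceeded the strongest terminal peak in 5 of the 40 members with a terminal peak (12.5%), beside 15.8% of protein-coding genes with introns and a terminal peak. PRKDC had 29 reads in intron 75 against 24 at its end, with 7 A downstream, and this peak (124 bp) is wider than the intron (101 bp). DCLRE1C had 43 against 35, with 6 A. XRCC1 had 19 against 15 and MUTYH 15 against 10, both with 10 A downstream, and XRCC4 had 11 against 9, with 8 A. The sites were thus A-rich, with at least 7 A among the 10 bases downstream, in all but DCLRE1C. The intronic peaks of DCLRE1C, XRCC1 and MUTYH also lie in other genes.

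At least 2 terminal peaks were found in 29 of the 40 members (72.5%), against 57.9% of all protein-coding genes with a terminal peak. PMS1, PRKDC and ERCC8 had 7 each, PMS2 had 6, and ERCC6 and OGG1 had 5. The strongest of a member lay outside the window of the canonical transcript end in 13 of 40 (32.5%), close to the background of 31.2%. These were XPA, ERCC1, ERCC4, ERCC6, ERCC8, MSH3, MSH6, PMS2, NEIL1, MBD4, LIG3, XRCC5 and NHEJ1. In ERCC1, ERCC4, ERCC6, MSH6, NEIL1 and MBD4 that peak also lay in a gene of the opposite strand, and in NHEJ1 in another gene of the same strand. A terminal peak with its 3′ edge in the window of the canonical end was present in 36 members, and was missing in MLH3, ERCC1, NHEJ1, NEIL1 and XRCC5. NEIL1 did have a terminal peak of 15 reads with its summit inside that window and its 3′ edge just outside, 620 bp past the canonical end.

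Some of these upstream ends carried the letters of a usual poly(A) site. In ERCC8 a site of 14 reads lay 7379 bp upstream of the canonical end, at the end of an annotated transcript, with a signal 24 bp upstream and no A in the next 10 bases. The canonical end of ERCC8 had 12 reads. In MSH3 a site 891 bp upstream had 19 reads and a signal 28 bp before it, against 18 reads at the canonical end.

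Others had no signal in that position or many A downstream. In XPA a peak of 39 reads lay 10031 bp upstream of the canonical end, had 7 A downstream and no AATAAA or ATTAAA 10 to 40 bp before it. The canonical end of XPA had 19 reads with a signal at 28 bp. In LIG3 the strongest peak classed as terminal (37 reads) lay 4683 bp upstream at the end of a retained-intron transcript, with 0 A downstream and no signal in that position. LIG3 also had a stronger peak classed as exonic, of 39 reads, 500 bp before the canonical end, with a signal at 26 bp and 4 A downstream, at a position that RFFL on the opposite strand shares. PMS2 had 32 reads 2316 bp upstream and 14 at the canonical end, where the signal started at 25 bp. Another PMS2 peak, classed as exonic, had 22 reads and a 3′ edge 208 bp before the canonical end. It had a signal at 28 bp and 4 A downstream.

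PMS1 had 7 terminal peaks spread along the gene. Beside 43 reads at the canonical end, sites at the ends of short protein-coding transcripts lay 70575 and 59503 bp upstream, with 16 and 23 reads, 1 and 2 A downstream, and signals at 28 and 25 bp. PMS1 peaks 12957 and 81766 bp upstream had 24 and 7 reads and 10 and 8 A downstream. Both kinds of site are thus found among the short annotated ends of this gene.

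Over all members, 3 of 36 terminal peaks at the canonical end were A-rich (8.33%, interval 2.87 to 21.8), against 28 of 71 at other annotated ends (39.4%, 28.9 to 51.1). In other protein-coding genes the A-rich shares were 3.78% at the canonical end and 31.8% at other ends. A signal 10 to 40 bp upstream was found at 21 of the 36 (58.3%, 42.2 to 72.9) and 17 of the 71 (23.9%, 15.5 to 35.0). In other genes it was found at 66.7% and 34.7%. Pileups had a median of 25 at the canonical end and 15 at the other ends. The second set includes ends of retained-intron transcripts in PRKDC, ERCC8, DDB1 and PARP1. Among the 71 peaks at other ends, 18 also lay in a gene of the opposite strand.

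XRCC5 shows a limit of calling by summit. Its peak of 59 reads lay 743 bp upstream of the canonical end, while a peak of 40 reads reached to 4 bp before that end but was 350 bp wide, with its summit too far upstream to be called terminal. That peak had AATAAA or ATTAAA 29 bp before its 3′ edge.

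Intronic peaks were found in 35 members. Among the 40 members with a terminal peak 34 had one (85%), against a background of 77.3% among intron-containing protein-coding genes that had a terminal peak. NTHL1, APEX1, PARP2, LIG3, LIG4 and PMS2 had none. The highest counts were in long genes. MSH3 had 35 intronic peaks in 222 kb, PRKDC 27 in 187 kb, POLQ 21 in 115 kb, XRCC5 21 in 98.8 kb and XRCC4 20 in 276 kb. PMS1 had 15, RAD23B and NHEJ1 12 each, NEIL3 11 and XRCC6 9.

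Each member was therefore set beside the 200 other protein-coding genes nearest in length, all with introns and a terminal peak. Of the 40 members with a terminal peak, 18 (45%) had more intronic peaks than the median of those genes, against 39.5% of the 13405 protein-coding genes with introns and a terminal peak when each is treated so. Of all 41 members, 18 lay above the median of their length neighbours, 16 below and 7 on it. The number above was 14 with peaks in another gene left out. It was 22 with only protein-coding transcripts and with only canonical transcripts. The background share was not counted under these settings. By pathway, the members above were 3 of 12 in nucleotide excision repair, 2 of 5 in mismatch repair, 8 of 16 in base excision and single-strand break repair and 5 of 8 in end joining.

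**Figure D2:**
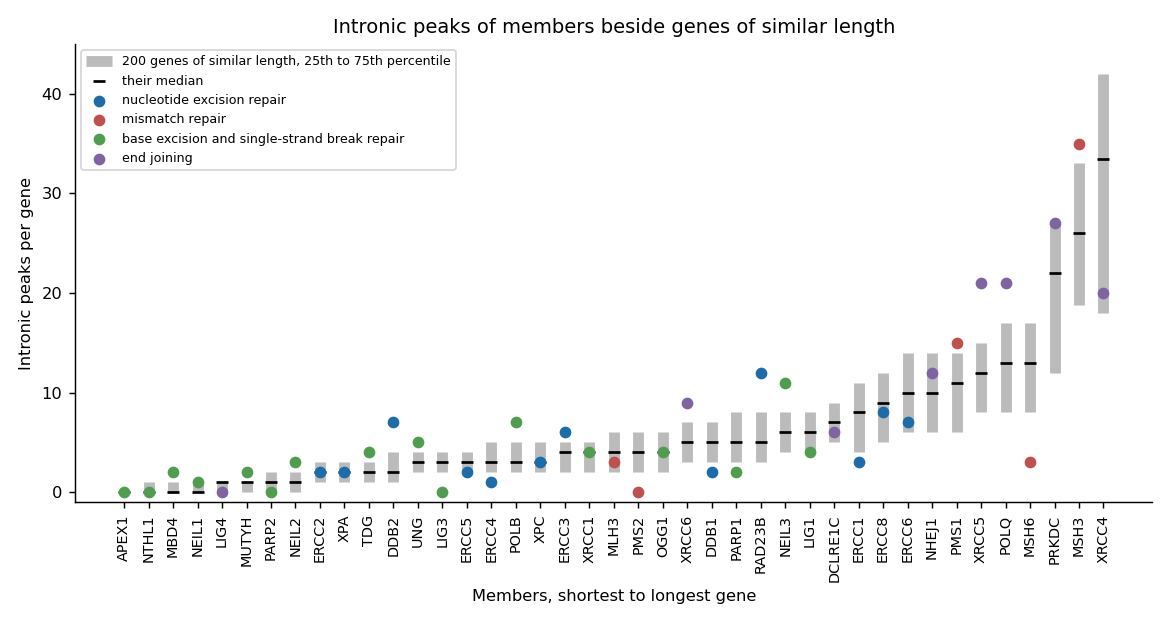
Number of intronic peaks (y axis) in each member, ordered from the shortest to the longest gene (x axis) and coloured by pathway, with the 25th to 75th percentile (grey) and the median (dash) of the 200 genes nearest in length. RAD23B (12 peaks) and DDB2 (7) were matched by 3 and 6 of their 200 neighbours, and 18 of 41 members lie above the dash.

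RAD23B and DDB2 were in the top 5% of their length neighbours. They are 2 of the 40 members with a terminal peak (5%), near the background of 3.89%, and their partners in damage recognition did not rank with them: XPC had 3 intronic peaks at a neighbour median of 3, and DDB1 had 2 at a median of 5. RAD23B had 12 intronic peaks in 49.1 kb where the neighbours had a median of 5, and 3 of the 200 had as many. Its intronic pileups were 6 to 19 reads, and 8 of the 12 sites were A-rich. Intron 1, with 36.7% of the intron bases, held 6 of them.

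DDB2 had 7 intronic peaks in 24.8 kb, with a neighbour median of 2, and 6 of the 200 had as many. All 7 lay in intron 3, which holds 70.3% of the intron bases of the canonical transcript. Their pileups were 24, 20, 18, 20, 17, 17 and 19 reads in the direction of transcription, above the median of 10 over all member intronic peaks. At 4 of the 7 the sequence downstream was A-rich. The 2 most upstream sites, 3.44 and 3.89 kb from the canonical start, had 5 and 4 A.

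XRCC5 (21 peaks, neighbour median 12) was matched by 12 of its 200 neighbours, NEIL3 (11, median 6) and MBD4 (2, median 0) by 19 each, POLQ (21, median 13) by 21, POLB (7, median 3) by 22 and XRCC6 (9, median 5) by 24. Both intronic peaks of MBD4 also lie in IFT122, and 4 of the 11 of NEIL3 in an unnamed gene of the opposite strand (ENSG00000249084). At the low end no member was within the bottom 5%. The nearest were LIG3 (0 peaks, median 3) and MSH6 (3 peaks, median 13), for each of which 18 of 200 neighbours had as few or fewer. PMS2 (0 peaks, median 4) had 20 such neighbours. The rank of MSH6 rests on its annotated body of 115 kb, since the canonical transcript spans 23.8 kb. With canonical transcripts only, MSH6 had 4 intronic peaks at a neighbour median of 3, and 170 of 200 neighbours had as few or fewer. XRCC4, with 20 peaks where the median was 33.5, was also below.

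**Figure D3:**
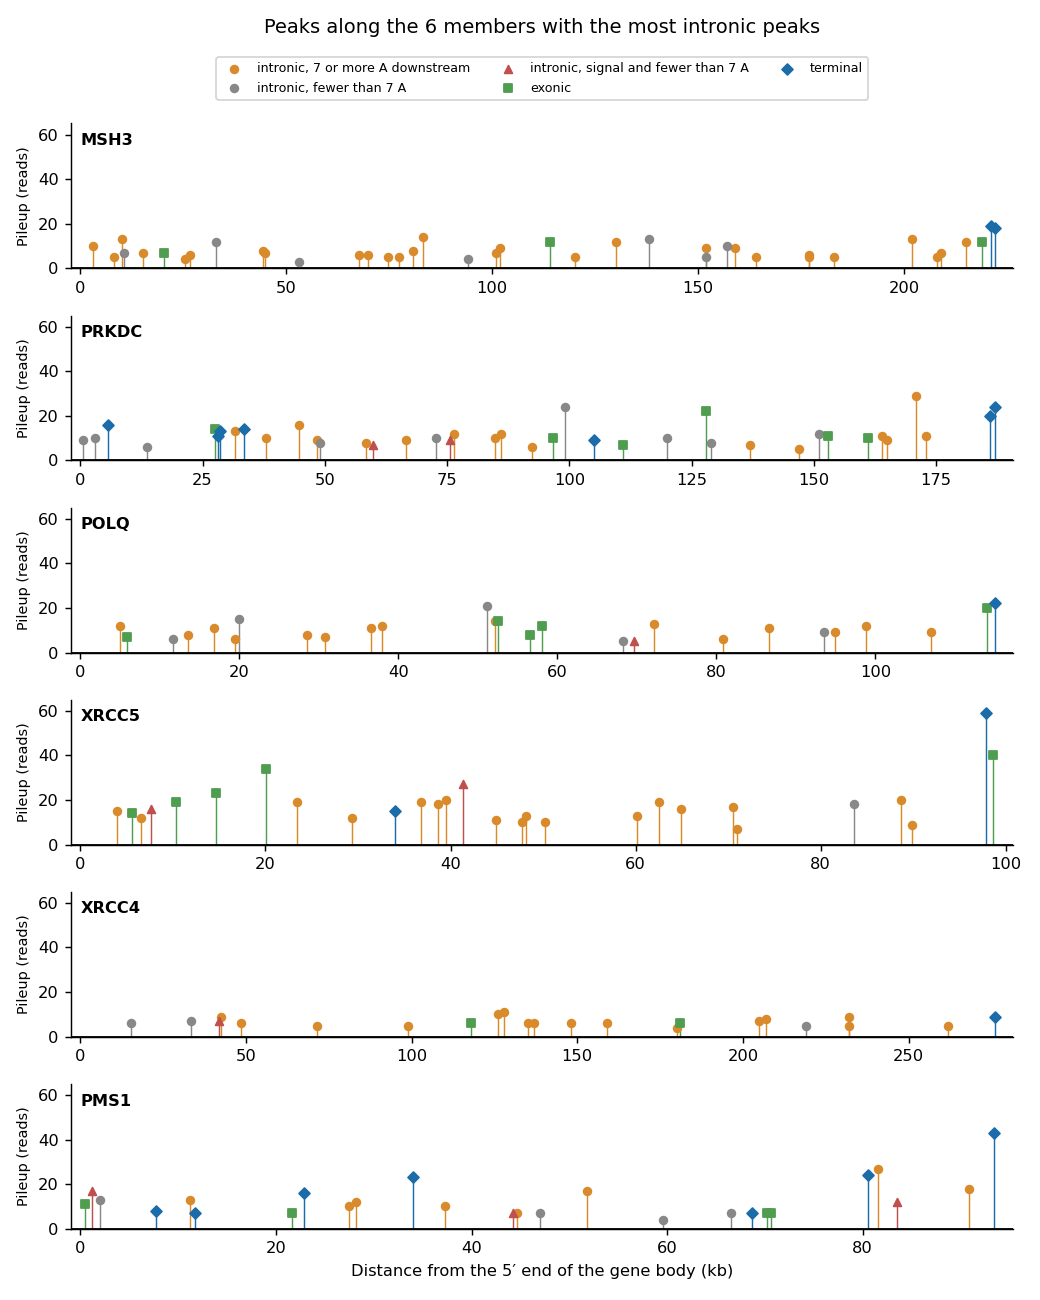
Peaks along the 6 members with the most intronic peaks, as distance from the 5′ end of the gene body (kb, x axis) and pileup (reads, y axis), with symbols for class, A content and signal. The terminal peaks of XRCC5 and PMS1 rise to 59 and 43 reads, while the intronic peaks of MSH3 and XRCC4 reach at most 14 and 11 reads.

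Intronic pileups in members had a median of 10 reads (range 3 to 43), against 8 in other genes (3 to 97). MSH3 and XRCC4, with long introns, had weak intronic peaks of at most 14 and 11 reads. In XRCC5 they reached 27 reads and in PRKDC 29. In MSH3, intron 8 (46.4 kb) held 8 of the 35 peaks and intron 20 (40.4 kb) held 5. In NHEJ1, 9 of 12 lay in intron 5, which makes up 82.1% of its intron bases, and all 12 also lay in an unnamed gene of the same strand (ENSG00000280537).

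The first intron held 33 of the 276 member intronic peaks (12%, interval 8.64 to 16.3) and 8.73% of the canonical intron bases of members with an intronic peak. In other genes the values were 24.6% of peaks and 24.3% of bases. When the canonical transcript was cut into 4 equal stretches, 78, 83, 61 and 45 intronic peaks lay in them, counted from the start of the gene. The remaining 9 lay outside the introns of the canonical transcript. Neither the intron bases per stretch nor the counts in other genes were taken, so whether this spread is particular to members is unknown.

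Of the 276 intronic peaks 184 were A-rich (66.7%, interval 60.9 to 72.0), and the share in other protein-coding genes was 66.8%, inside that interval. The share was 58.2% in nucleotide excision repair, 67.9% in mismatch repair, 65.3% in base excision and single-strand break repair and 70.7% in end joining. In MSH3 28 of 35 sites were A-rich, in XRCC5 18 of 21 and in XRCC4 16 of 20. In TDG none of 4 was, and in DDB1 and ERCC2 both of 2 were. Pileups at A-rich and other intronic sites had the same median of 10 reads.

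**Figure D4:**
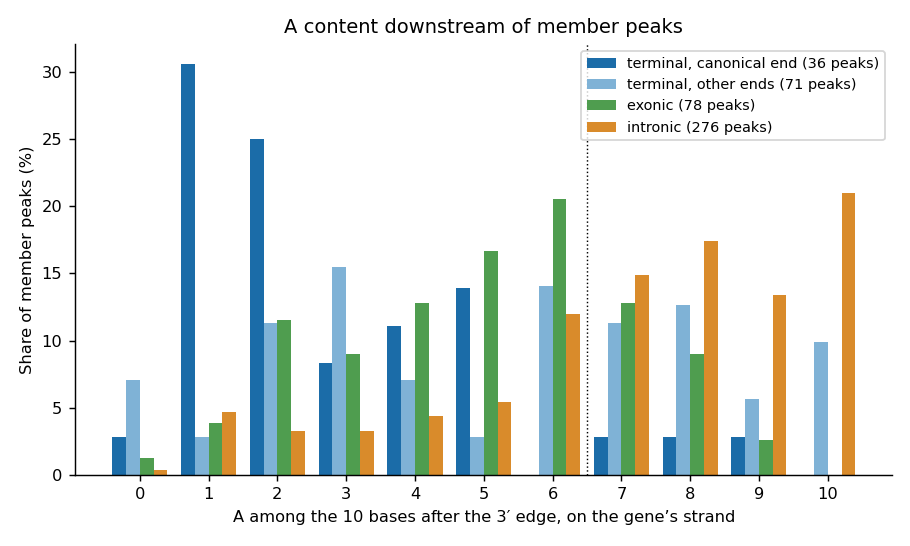
Share of member peaks (%, y axis) by the number of A among the 10 bases after the 3′ edge (x axis), for terminal peaks at the canonical end, terminal peaks at other annotated ends, exonic and intronic peaks. Canonical ends peak at 1 A (30.6% of 36) and intronic peaks at 10 A (21.0% of 276), and the dotted line marks the limit of 7.

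AATAAA or ATTAAA anywhere in the 100 bp upstream was found at 56 of 276 member intronic peaks (20.3%, interval 16.0 to 25.4) and at 23% in other genes. Any of 12 known hexamer signals was found at 79 of 107 terminal member peaks (73.8%, 64.8 to 81.2) and at 77.8% of terminal peaks in other genes. By the narrower demand of AATAAA or ATTAAA 10 to 40 bp upstream, the share was 35.5% of terminal member peaks (27.1 to 44.9) against 48.2% in other genes. A-rich sites were 29% of terminal member peaks (21.2 to 38.2) against 19.9% in other genes, so the values of other genes lay outside both intervals. The mix of ends differed, with 36 of 107 terminal member peaks at the canonical end against 12814 of 30272 in other genes. Taken apart by canonical and other ends, the A-rich and signal shares of other genes given above all lay inside the member intervals. These intervals are wide, resting on 36 and 71 peaks. At both kinds of end the members still had the higher A-rich share and the lower signal share. How much of the gap goes with the mix of ends was not tested. With the stricter demand of a signal 10 to 40 bp upstream and fewer than 7 A downstream, 18 member intronic peaks remained (6.52%, 4.16 to 10.1), against 8.14% in other genes. They lay in 12 members, which is 30% of the 40 with a terminal peak, beside a background of 32.6%.

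These 18 sites include several near the 5′ end. In PMS1 a site of 17 reads lay in intron 1 at 0.809 kb from the canonical start, with AATAAA 29 bp upstream and 2 A downstream. In ERCC6 a site of 13 reads lay in intron 1 at 1.02 kb, with AATAAA at 25 bp and 1 A, against 16 reads at its strongest terminal peak. NEIL3 had 6 reads in intron 1 at 0.259 kb, and ERCC5 had 12 reads in intron 1 at 2.09 kb, where the read-through gene BIVM-ERCC5 also runs. TDG had 11 reads in intron 1 at 8.04 kb.

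Further into the genes, XRCC5 had 2 such sites, of 16 reads in intron 2 (5.73 kb) and of 27 reads in intron 14 (39.5 kb), where AATAAA started only 14 bp before the 3′ edge. ERCC6 had further sites of 13 reads in intron 5 (20.1 kb, 0 A downstream) and 5 reads in intron 7. PMS1 had 7 reads in intron 5 and 12 in intron 10, ERCC8 11 in intron 4, XPA 10 in intron 5, XRCC4 7 in intron 3 and POLQ 5 in intron 20. PRKDC had 7 and 9 reads in introns 28 and 36 of 85. The signal at the 18 sites started at a median of 22.5 bp (10 to 29) before the 3′ edge, and at 38 terminal peaks at 27 bp (13 to 40).

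The strongest of the 18, of 43 reads in DCLRE1C, lay 51.1 kb from the canonical start and beyond the introns of the canonical transcript. SUV39H2, on the opposite strand, covers the same position, and AATAAA or ATTAAA was also found upstream on that strand, with 2 A after it. Which of the 2 genes the reads came from cannot be told apart without strand.

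Exonic peaks outside the terminal windows numbered 78, or 16.9% of member peaks (13.8 to 20.6) against 10.3% in other genes, without a match for gene length. Of the 78, 43 lay in coding sequence, in 20 members. Peaks in coding sequence were not counted in other genes, so whether these numbers are high is unknown. TDG had one of 40 reads in coding sequence 14.0 kb into the gene, with 7 A downstream. XRCC6 had 34 reads at 0.711 kb with 3 A downstream, XRCC5 34 at 18.2 kb with 4 A, and XPC 32 at 8.08 kb with 6 A. None of these 4 had AATAAA or ATTAAA 10 to 40 bp upstream. Outside coding sequence, RAD23B had peaks of 40 and 30 reads 1134 and 1739 bp before its canonical end, against 32 at that end.

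The list has no strand, and 86 of the 461 member peaks (18.7%) also lay in another gene, 56 of them in a gene of the opposite strand. The overlaps touch, among others, MBD4 (IFT122), MSH6 (FBXO11), OGG1 (CAMK1 and TADA3), ERCC1 (POLR1G), NEIL1 (MAN2C1), NEIL3 (ENSG00000249084), LIG3 (RFFL), XPC (XPC-AS1), ERCC2 (KLC3), APEX1 (PIP4P1) and DCLRE1C (SUV39H2). All 3 terminal peaks of MSH6, with 38, 36 and 31 reads, lay in FBXO11, and both of ERCC1, with 42 and 19, in POLR1G. The intronic peaks of XPC with 30 and 21 reads lay in XPC-AS1, and that of XRCC1 with 19 reads in a gene of the same strand (ENSG00000268361). Of the 276 intronic peaks 44 lay in another gene, with a median pileup of 11 reads against 10 at the other 232.

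The other genes of these pathways, a list of 39 that includes TFIIH subunits, RPA, RFC, PCNA, EXO1 and FEN1, were counted in the same way. Of these, 37 had a terminal peak, beside 68.7% of all protein-coding genes. The exceptions were DNTT, the template-independent polymerase of lymphocytes, and APLF. The strongest terminal pileups had a median of 30 reads (7 to 63), among them the glycosylase MPG with 63 and the flap endonuclease FEN1 with 58. An intronic peak was found in 27 of the 39, and 12 had more than the median of genes of similar length. Over all protein-coding genes with introns and a terminal peak, the shares were 77.3% and 39.5%. The counts do not have the same base as these shares, since the 39 include DNTT and APLF, which had no terminal peak. MNAT1 had 39 intronic peaks, RFC3 33 and PARG 32.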

How the data were processed

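Poly(A) 3′-seq libraries (QuantSeq 3′ REV) came from IMR-32 cells expressing shRNAs against CDK12, CDK13 or GFP, 10 libraries in all. The authors mapped reads to GRCh38 with STAR 2.5.1b, downsampled the libraries, which came from different batches, to the smallest, merged them and called peaks once with MACS2 2.1.1 on reads extended to 100 bp. Per the labels, deepTools 2.5.4 and SAMtools were also used. The paper also describes removing peaks that lacked a hexamer signal upstream and had a long genomic stretch of A downstream. Whether the deposited list was filtered in this way was not checked, and the A-rich and hexamer shares would depend on it. The deposited list has 178837 peaks, without strand and without a value per library, so libraries, batches and groups could not be compared and the depth per library is unknown. Its fold column is, per the authors' peak caller, the ratio of the summit pileup to the local background, each plus 1. The p-value and q-value columns deposited are −log10 values, and its integer score column was not used.

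The pileup was recovered as the whole number for which fold and p-value fit together (largest miss 0.000168 in −log10 p, median of the next best number 0.078). No pileup was above 200, the number that 100 positions on 2 strands allow if each counts once. A pileup therefore need not be proportional to RNA abundance.

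Summits were classed, in this order, as terminal (200 bp upstream to 600 bp downstream of any transcript end in GENCODE 44), exonic or intronic. A gene can share a peak with an overlapping gene. The 12 hexamers and AATAAA or ATTAAA were searched in the 100 bp upstream of the 3′ edge and A counted in the 10 bases downstream, on the strand of the gene. Overlapping hexamers counted once per peak. Gene length neighbours were the 200 protein-coding genes nearest in log2 length with an intron and a terminal peak. Shares have 95% Wilson intervals. No test between groups was possible, and none is given. The alternatives tried were stricter q-values, other positions, windows and transcripts, leaving out peaks in other genes, merging close peaks, and other limits, hexamers and neighbours. The study named an earlier GENCODE release on the same build.

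The members and gene lists were chosen with earlier results of these data known. All members were described by pathway. Those with the most intronic peaks, the 10 strongest terminal peaks, no terminal peak, or a count in the top or bottom 5% of length neighbours were described in full, as were intronic sites with a signal and few A. Exonic peaks, other ends and overlaps were named after their values were seen. Scripts used Python with numpy, pandas, scipy and pysam, and were tested on simulated data. Sequences were read from GRCh38, and none is given for the 3 members on chromosome 8. Some items are not reported here.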

Additional observations from a re-analysis of the deposited data

How the results depend on the processing

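No paired analysis was possible because the deposited list pools all libraries and the results come from no test, and for the same reason no library could be left out. Of 84 alternative values over 8 results, 69 stayed within 1.5 times the count or within the 95% interval of the share, and 15 moved. Members with a terminal peak stayed between 30 and 40. With only peaks of a deposited −log10 q of at least 20, members with an intronic peak fell to 5, intronic peaks to 6 and members above the median of genes of similar length to 5, while 66.7% of intronic peaks (4 of 6) had AATAAA or ATTAAA, 0% lay in the first intron and 83.3% of terminal peaks had any of 12 hexamers. This share of terminal peaks was 87.2% with only the Ensembl canonical transcript, 60.7% with 50 bp upstream, 45.8% with AATAAA and ATTAAA only and 34.6% when searched at the summit. The share of A-rich intronic peaks was 78.6% with a limit of 6 A, 51.8% with 8 A and 3.62% at the summit. The share of intronic peaks with AATAAA or ATTAAA was 12.7% with 50 bp upstream and 9.42% at the summit. The narrower windows, the shorter hexamer list and the limit of 8 A hold fewer matches by construction, and the limit of 6 A holds more. A stricter q-value can likewise only lower the number of intronic peaks and of members that have one. The cause of the other moves was not tested. A class call by the 3′ edge, an alternative chosen after seeing the data, moved none of the 8 results.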
